A study of Mus musculus with 6 samples.

Results

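Chronic non-recovered and chronic recovered microglia are the cells that the authors typed as microglia in 2 single-cell libraries of sorted mouse hippocampal immune cells. One library came from mice that stayed helpless through the chronic paradigm of learned helplessness. The other came from mice whose helplessness faded over that time. Of 99 non-recovered microglia 98 were used, and of 372 recovered microglia 371, which together are 469 of the 3005 cells of the series and of its 2721 microglia. A barcode was left out when it held at least 20 unique molecular identifiers (UMIs, each standing for 1 captured RNA molecule) of 5 neutrophil genes, or at least 50 UMIs of Ttr, the transthyretin gene of the choroid plexus. That removed 1 barcode a side.

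Both groups were of the strain written BC57BL/6 in the labels, and no genotype, sex or age is given. Both had received 180 inescapable foot shocks of 0.3 mA, a test of 30 trials of 24 s, and weekly retests for 3 weeks, so exposure to shock was common to both and they differed in how the behaviour developed. Live CD45-positive cells were sorted from perfused hippocampi freed of meninges and choroid plexus, and 5′ droplet libraries were made. Each group had 1 library, how many animals went into it is not given, and both belonged to the authors' batch 3. No spread between replicates exists, so no test between the groups was possible and no p-value is given. Every interval below is an exact 95% interval and covers counting error only, not differences between animals or between runs of the protocol. Whether a difference belongs to the behavioural group or to the library cannot be told apart. To place the values, 2 more libraries of batch 3 are given beside them. They are chronic non-helpless microglia (497 cells), from shocked mice that did not become helpless, and non-shocked microglia (429 cells). From the non-shocked sample only microglia of batch 3 were taken.

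Microglia are the resident macrophages of the brain, which survey synapses, clear debris and present antigen when activated. Stress hormones reach them through the glucocorticoid receptor, a cytoplasmic receptor held by heat shock chaperones that moves to the nucleus when it binds hormone and switches on genes such as Fkbp5, Per1, Tsc22d3 and Sgk1. The product of Fkbp5 is a co-chaperone that lowers the receptor's affinity for hormone, which closes a feedback loop. Per1 is also a core gene of the circadian clock, whose activators bind a short DNA motif called the E-box. Learned helplessness is the failure to escape an avoidable shock after exposure to inescapable ones, and is used as a model of depression-like behaviour.

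The sequences in front of 4 genes are shown, which are members of the hormone, clock and lysosome lists below. They do not stand for those lists as a whole. Lamp1 was 1 of 3 genes at least 1.5-fold higher among 31 lysosomal genes, and Sgk1 did not reach 1.5-fold. Each window shown holds the motif marked in it. Each run is 300 bases, from 250 before to 50 after a RefSeq transcription start on build GRCm38.p6, in the direction of the gene. Capitals mark the E-box CACGTG in the first 3 and the palindromic glucocorticoid response element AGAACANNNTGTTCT in the last.
Fkbp5, chr17:28486100-28486399, minus strand: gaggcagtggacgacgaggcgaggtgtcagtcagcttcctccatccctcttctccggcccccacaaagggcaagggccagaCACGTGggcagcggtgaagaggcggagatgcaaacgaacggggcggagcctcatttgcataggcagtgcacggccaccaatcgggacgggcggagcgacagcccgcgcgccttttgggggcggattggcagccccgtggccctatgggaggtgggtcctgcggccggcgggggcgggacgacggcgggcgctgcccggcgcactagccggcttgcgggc
Per1, chr11:69098699-69098998, plus strand: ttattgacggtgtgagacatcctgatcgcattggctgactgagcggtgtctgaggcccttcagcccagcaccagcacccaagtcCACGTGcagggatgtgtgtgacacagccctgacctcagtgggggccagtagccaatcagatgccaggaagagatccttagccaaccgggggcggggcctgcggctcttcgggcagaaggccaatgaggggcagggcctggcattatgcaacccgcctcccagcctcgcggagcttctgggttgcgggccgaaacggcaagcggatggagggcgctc
Lamp1, chr8:13158911-13159210, plus strand: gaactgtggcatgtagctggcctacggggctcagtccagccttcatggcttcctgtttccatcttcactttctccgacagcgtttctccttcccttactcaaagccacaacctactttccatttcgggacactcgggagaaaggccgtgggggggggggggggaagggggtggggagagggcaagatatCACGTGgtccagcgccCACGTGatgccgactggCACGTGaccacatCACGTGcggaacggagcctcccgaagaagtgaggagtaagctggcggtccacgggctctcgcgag
Sgk1, chr10:21993640-21993939, plus strand: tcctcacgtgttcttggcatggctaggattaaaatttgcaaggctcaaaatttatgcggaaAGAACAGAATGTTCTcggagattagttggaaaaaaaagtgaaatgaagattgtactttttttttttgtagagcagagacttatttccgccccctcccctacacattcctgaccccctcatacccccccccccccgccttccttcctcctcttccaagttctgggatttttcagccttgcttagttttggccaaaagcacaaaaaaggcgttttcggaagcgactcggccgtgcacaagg
Fkbp5 and Per1 held 1 E-box each and Lamp1 held 4, and the Sgk1 window also held 1, left in lower case. The E-box was found in 7.15% of the 32851 promoters of the table on both strands, and 8 promoters (0.0244%) held 4 or more. The full palindrome was found in 3 promoters (0.00913%). Its half-site AGAACA, which the palindrome contains, was found in 18.97% on either strand and in neither the Fkbp5 nor the Per1 window. The Per1 window is 1 of 2 listed for that gene and the Sgk1 window 1 of 6. These windows were picked for holding the marked motif, and the others listed for Per1 and Sgk1 did not hold it. These matches describe letters in these windows and say nothing about binding.

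The label microglia fitted the markers in most cells. The 8 microglial markers, with P2ry12, Tmem119, Siglech, Sall1, Fcrls, Cx3cr1 and Olfml3 among them, held a median of 3.28% of UMIs per non-recovered cell and 4.18% per recovered cell. No non-recovered cell had under 0.5% of its UMIs in them, and 2 recovered cells did. One of these 2 had 1597 UMIs, 31.2% of them ribosomal, 0 marker UMIs and 73 UMIs of Cd74, the invariant chain of MHC class II. The other had 10604 UMIs, with 26.4% ribosomal and 0.019% in the markers. It held 0 UMIs of Cd74 and 7 of Ighm, a B cell marker. The libraries shared 0 cell barcodes. Non-recovered cells summed to 286827 and recovered cells to 1720769 UMIs, with medians of 2491.5 and 4568 UMIs per cell. The part of markers of other cells in the results was not tested. Of 10 neutrophil markers, the non-recovered library had 3 at 0 UMIs and the recovered library 6, and their sum was 143 against 4.65 CPM (UMIs of a gene per 1000000 UMIs of these cells). The 9 monocyte markers summed to 34.9 against 14.5 CPM, with 6 and 5 of them at 0. T cell markers summed to 13.9 against 4.07, with 9 and 7 of 11 at 0, and neuronal markers to 0 against 0.581 CPM. The 7 astrocyte markers summed to 206 against 185 CPM, with 6 and 5 at 0, and the 8 oligodendrocyte markers to 105 against 132, with 5 and 4 at 0. The 6 B cell markers summed to 188 against 324 CPM, with 4 and 0 at 0.

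The libraries differed in the make-up of their microglia. Cells with under 2.5% of their UMIs in ribosomal protein genes, which encode the building blocks of ribosomes, made up 53.1% (42.7 to 63.2) of non-recovered microglia, or 52 of 98 cells. In the recovered library they were 9.43% (6.66 to 12.9), or 35 of 371. The share was 15.7% (12.6 to 19.2) in chronic non-helpless and 33.8% (29.3 to 38.5) in non-shocked microglia, so the non-recovered library stood highest of the 4. With every cell of at least 1000 UMIs thinned to 1000, which left out 11 non-recovered and 7 recovered cells, the shares were 49.4% (38.5 to 60.4) and 9.34% (6.56 to 12.8). These ribosome-poor cells were shallow in both libraries, with medians of 1863 UMIs for non-recovered and 2097 for recovered cells. Malat1, a nuclear non-coding RNA, took a median of 4.04% and 3.18% of their UMIs. The other cells, called ribosome-rich here, had medians of 4371.5 and 4724.5 UMIs, and Malat1 took 1.13% and 0.941%. Few cells lay near the threshold, with 3 non-recovered and 4 recovered cells between 2% and 3%. What makes a cell ribosome-poor was not tested. The counts of genes and of list members below are therefore given for all cells and for the ribosome-rich cells alone. These were 46 non-recovered and 336 recovered cells. Some lists also have ribosome-poor values. The authors' cluster 6 held 57 non-recovered and 46 recovered microglia. The other non-recovered cells, 41, were in cluster 1, and the other recovered cells, 325, in cluster 2. The ribosome-rich comparison is thus mostly between cells of different clusters, and the part of cluster in the ratios was not tested.

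**Figure D1:**
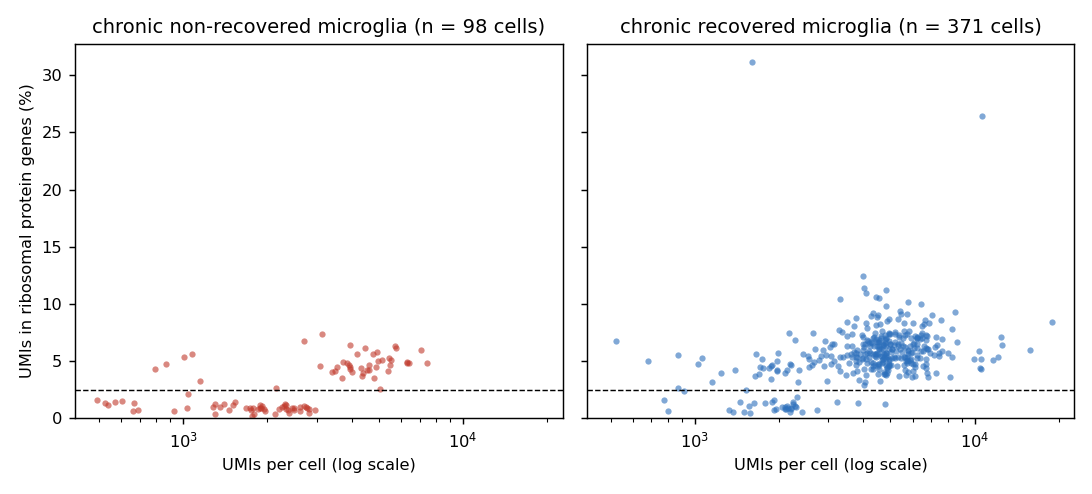
Each point is 1 cell, with its UMIs on a log axis and the percentage of them in ribosomal protein genes, for the 98 non-recovered and 371 recovered microglia. The dashed line marks 2.5%, below which lie 52 non-recovered and 35 recovered cells.

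A gene was counted as measured when its mean level over both libraries was at least 20 CPM, and as apart when its levels differed at least 1.5-fold. Of 7007 genes measured, 1853 (26.4%) were higher and 797 (11.4%) lower in non-recovered microglia. The median gene lay at a log2 ratio of 0.17, and the median distance was 1.37-fold. When the ratios were centred on that median, 1405 were higher and 1230 lower, so that the higher genes made up 53.3% rather than 69.9% of those apart. Every log2 ratio below is non-recovered over recovered on totals, to be read against the 0.17 of all genes. In the ribosome-rich cells, 1437 of 6779 genes (21.2%) were higher and 711 (10.5%) lower, with a median of 0.087. The shares of all genes, 26.4% higher and 11.4% lower in all cells and 21.2% and 10.5% in ribosome-rich cells, are the background of every list count below. Of the 1853 higher genes, 1187 (64.1%) were also at least 1.5-fold higher in ribosome-rich cells and 124 had the opposite sign. Of the 797 lower genes, 422 (52.9%) were also lower there and 1 had the opposite sign.

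The pair stood farther apart than the other pairs of batch 3 when every library was thinned to 286827 UMIs. Non-recovered and recovered microglia then had 43.3% of genes apart. Non-recovered microglia had 41% apart from non-helpless and 34% from non-shocked microglia, while recovered microglia had 27.6% apart from non-helpless microglia. The 2 pairs left, non-shocked against recovered and against non-helpless microglia, had 34.2% and 33.5%. These comparisons share libraries. Among ribosome-rich cells, at 194114 UMIs each, the same 6 figures were 38.1%, 40.2%, 36.2%, 34.1%, 36.7% and 38.8%, so the pair was the third farthest apart and the range narrowed. At these equal totals the recovered and non-helpless libraries had the fewest genes apart of the 6 pairs in both sets of cells, with cell numbers and UMIs per cell not matched.

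Ribosomal protein genes were the clearest block of lower transcripts. Of 89 measured, 67 were lower and 3 higher, with a median of -0.77. In ribosome-rich cells 11 were lower and 4 higher, and the median was -0.36. Since the split of the cells used these same genes, the second pair of values only describes it.

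The ratio also followed the length of the gene on the chromosome. When genes were put in 5 classes of equal number by length, the shortest class, up to 8.26 kb, had a median log2 ratio of -0.19 and 13.3% of its genes were higher. The longest class, from 64.9 kb, had a median of 0.56 and 47.0% were higher. The 3 classes between lay at 0.017, 0.13 and 0.36, in order of length. Within ribosome-rich cells the medians ran from -0.10 through 0.023, 0.048 and 0.18 to 0.23, and the share of higher genes from 14.5% to 28.0%. Spans came from GENCODE M21 and were matched for 6952 genes. The part of gene length in the single results below was not tested.

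The 12 genes with the highest ratio were Btbd1, Ctbp1, Retreg2, Smap1, Fkbp5, Bri3, Rnpepl1, Galnt12, Adipor2, Mtch1, Zfand3 and Cables1. They were named by a fixed rule of size at a mean of at least 50 CPM. Btbd1, a BTB domain gene, had 45 UMIs (157 CPM) in non-recovered and 14 (8.14 CPM) in recovered microglia, 19.3-fold higher (10.4 to 38.0). Its level was 9.49 CPM in non-helpless and 120 in non-shocked microglia. Ctbp1, a transcriptional corepressor, stood at 101, 7.55, 10.4 and 105 CPM in the same order and was 13.4-fold higher (6.74 to 28.0). Bri3, a small membrane protein gene, stood at 185, 20.9, 14.2 and 232 CPM and was 8.83-fold higher (5.68 to 13.9). Adipor2, a receptor for adiponectin, stood at 94.1, 13.9, 26.1 and 68.9 CPM and was 6.75-fold higher (3.75 to 12.2). In these 4 genes the non-shocked level was nearer to the non-recovered one, and the non-helpless level nearer to the recovered one. The same held for the other 7 apart from Fkbp5, whose non-shocked level of 44.7 CPM was far below its non-recovered level of 188. In ribosome-rich cells the 12 ratios ran from 6.45-fold for Cables1 to 13.7-fold for Btbd1.

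Among the higher genes that likeness to the non-shocked library extended beyond the named ones. The shares of lower genes were near those of all genes. Of the 1853 genes higher in non-recovered than in recovered microglia, 567 (30.6%) were also at least 1.5-fold higher in non-shocked than in non-helpless microglia, a comparison of 2 other libraries. Over all 7007 genes the share was 11.1%. Of the 797 lower genes, 28 (3.51%) were also lower in non-shocked than in non-helpless microglia, against 2.48% of all genes. In ribosome-rich cells the same shares were 478 of 1437 higher genes (33.3%) against 10.7% of all genes. For lower genes they were 21 of 711 (2.95%) against 3.36%. Cluster 1 held 41 non-recovered, 244 non-shocked and 95 non-helpless microglia. Cluster 2 held 325 recovered and 228 non-helpless microglia. The part of these clusters in the likeness was not tested.

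**Figure D2:**
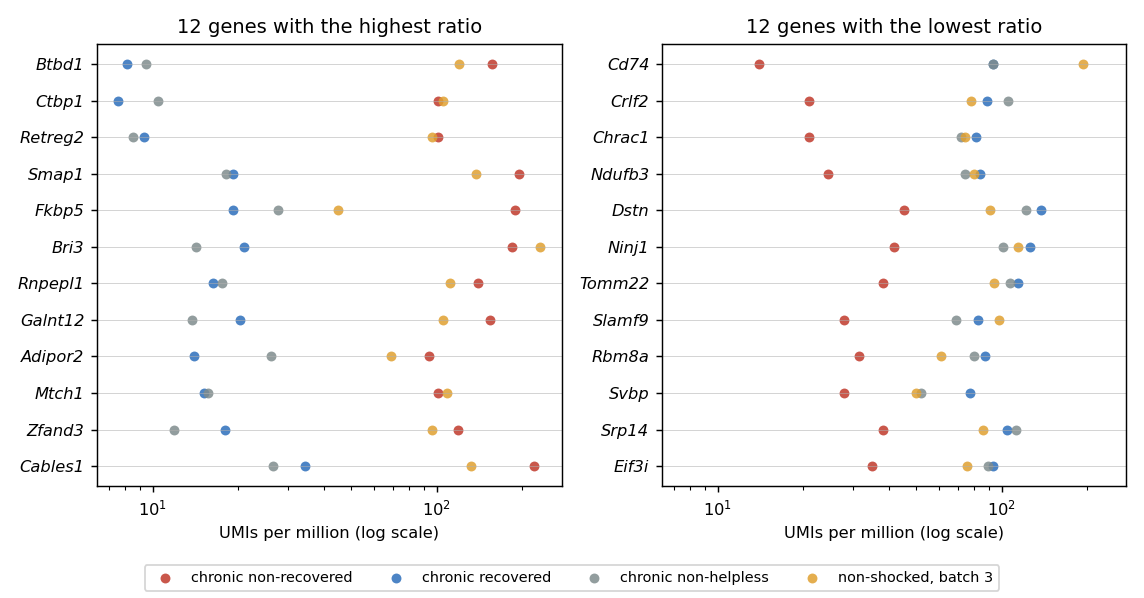
Levels of the genes named above (12 with the highest ratios, left) and below (12 with the lowest, right), in CPM on a log axis, in 4 libraries of batch 3. On the left, 11 of the 12 genes have non-shocked levels near the non-recovered ones, Fkbp5 being the exception with 44.7 against 188 CPM; on the right, the non-recovered library lies below the other 3 for each gene.

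The 12 genes with the lowest ratio were Cd74, Crlf2, Chrac1, Ndufb3, Dstn, Ninj1, Tomm22, Slamf9, Rbm8a, Svbp, Srp14 and Eif3i, and for each the non-recovered library was the lowest of the 4. Crlf2, a cytokine receptor chain that binds TSLP, had 6 UMIs (20.9 CPM) against 153 (88.9 CPM) and was 4.25-fold higher (1.91 to 11.8) in recovered microglia. Its non-helpless and non-shocked levels were 105 and 78.3 CPM. Chrac1, a histone-fold subunit of chromatin remodelling complexes, stood at 20.9, 81.4, 72.2 and 74.2 CPM and was 3.89-fold higher (1.74 to 10.8) in recovered microglia. Ninj1, which ruptures the plasma membrane in lytic cell death, stood at 41.8, 126, 101 and 114 CPM, a difference of 3.00-fold (1.68 to 5.90). Dstn, which takes actin filaments apart, stood at 45.3, 138, 122 and 90.6 CPM, 3.04-fold apart (1.74 to 5.79). Several others serve basic machinery: Ndufb3 is a subunit of respiratory complex I, Tomm22 a receptor of the mitochondrial import pore, Srp14 a part of the signal recognition particle and Eif3i a translation initiation factor. Within ribosome-rich cells all 12 were still lower in the non-recovered library, from 1.86-fold for Eif3i to 6.28-fold for Cd74. The intervals of Eif3i (0.985 to 3.95) and Svbp (0.942 to 4.52) included 1 there.

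The size of the Cd74 difference rested on 1 cell. The gene had 4 UMIs (13.9 CPM) in non-recovered and 161 (93.6 CPM) in recovered microglia, a difference of 6.71-fold (2.57 to 24.9). Of the 161, 73 came from the recovered barcode without marker UMIs described above, which also held 13 UMIs of H2-Aa, an MHC class II chain. Without that barcode the log2 ratio in all cells was -1.88 in place of -2.75, still lower in the non-recovered cells. With 31.2% ribosomal UMIs, the barcode also belongs to the ribosome-rich cells, where Cd74 had 3 UMIs against 160. The 6.28-fold difference there includes it.

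**Figure D3:**
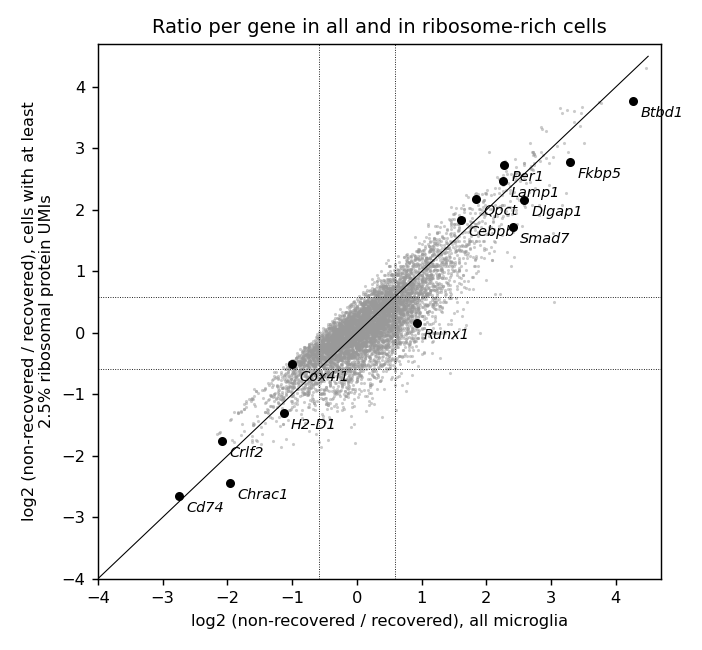
Each grey point is a gene, with its log2 ratio of non-recovered over recovered in all microglia on the horizontal and in cells with at least 2.5% ribosomal protein UMIs on the vertical axis; black points are named genes, dotted lines mark 1.5-fold and the diagonal marks equality. Fkbp5 lies at 3.30 and 2.78, Cd74 at -2.75 and -2.65, and Runx1 at 0.92 and 0.17.

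Among glucocorticoid-induced genes a few members were far higher in non-recovered microglia, while the list's counts were near those of all genes. Of 24 genes listed 14 were measured, 4 were higher (28.6%, against 26.4% of all genes) and 1 lower (7.14%, against 11.4%), and the median was 0.08, below the 0.17 of all genes. Fkbp5 had 54 UMIs against 33, at 188 against 19.2 CPM, 9.82-fold higher (6.25 to 15.6). No cell held more than 3 of these UMIs, and the 52 ribosome-poor non-recovered cells gave 29 of them against 2 in the 35 recovered ones. Per1 had 25 UMIs against 31, at 87.2 against 18.0 CPM, 4.84-fold higher (2.74 to 8.47), with 20.4 CPM in non-helpless and 14.1 in non-shocked microglia. One non-recovered cell gave 6 of the 25, and without it the log2 ratio was 1.90 in place of 2.27. For both genes the non-recovered library was the highest of the 4 and the other 3 lay at or below 44.7 CPM.

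Tsc22d3, which encodes the leucine zipper protein GILZ, stood at 349, 169, 183 and 44.7 CPM in non-recovered, recovered, non-helpless and non-shocked microglia. Ddit4, an inhibitor of mTOR signalling, stood at 293, 157, 136 and 23.5 CPM in that order. For these 2 genes the 3 shocked libraries lay above the non-shocked one, and the non-recovered library was highest, by 2.06-fold (1.63 to 2.60) for Tsc22d3 and 1.87-fold (1.44 to 2.39) for Ddit4 over the recovered one. Sgk1, a salt and stress kinase with the palindrome in 1 of its 6 promoter windows, stood at 1011, 711, 723 and 632 CPM. The 1.42-fold difference of Sgk1 (1.25 to 1.62) did not reach 1.5-fold. Dusp1, a phosphatase of MAP kinases, stood at 122 against 152 CPM and Cebpd at 244 against 307, both with intervals that included 1. Mt1, a metallothionein, was the member that was lower, at 83.7 against 129 CPM, 1.54-fold (1.01 to 2.46). In ribosome-rich cells 4 of 14 were higher and 0 lower, with Fkbp5 at 2.78, Per1 at 2.74, Tsc22d3 at 1.09 and Ddit4 at 1.18 on the log2 scale.

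Of the receptor and its partners, 9 of 12 were measured, 3 were higher (33.3%, against 26.4% of all genes) and 0 lower. The median was 0.014, below the 0.17 of all genes. Nr3c1, the glucocorticoid receptor, stood at 209 against 137 CPM, 1.53-fold higher (1.13 to 2.03), with 121 in non-helpless and 200 in non-shocked microglia. Ncor1, a corepressor, stood at 146 against 70.9 CPM, 2.07-fold higher (1.42 to 2.95), and Ncoa2, a coactivator, at 66.2 against 33.1, 2.00-fold higher (1.12 to 3.41). The chaperone Hsp90ab1 stood at 913 against 1326 CPM. In ribosome-rich cells 2 of 9 were higher (22.2%, against 21.2% of all genes) and 0 lower. The log2 ratios there were 0.61 for Nr3c1, 0.86 for Ncor1 and 0.28 for Ncoa2.

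Clock genes had the highest median of the 22 lists, at 1.19, on few UMIs. Of 18 listed 7 were measured, 5 of them higher and 0 lower, Per1 being 1 of the 5. Arntl, which encodes the E-box binding activator BMAL1, had 11 UMIs against 27, at 38.4 against 15.7 CPM, 2.44-fold higher (1.09 to 5.09). Per3, another period gene, had 9 against 21, 2.57-fold (1.04 to 5.86), and Tef, a PAR bZIP factor, 11 against 29, 2.28-fold (1.03 to 4.69). Bhlhe41, a repressor of E-box genes, had 32 against 123, 1.56-fold (1.02 to 2.32). All 4 lower bounds lay close to 1. Arntl was also above the non-helpless (7.12) and non-shocked (12.9) levels, whereas Tef reached 51.2 CPM in non-shocked microglia. In ribosome-rich cells 5 were higher and 1 lower, with a median of 0.78. In the ribosome-poor cells, 52 of the 98 non-recovered ones, 5 clock genes were measured, on 4 to 9 non-recovered and 2 to 9 recovered UMIs each, and 0 were higher or lower, with a median of 0.040. Per1, with 3 UMIs in each library there, was too low to be counted among them. The sources used here do not give the time of day of tissue collection.

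**Figure D4:**
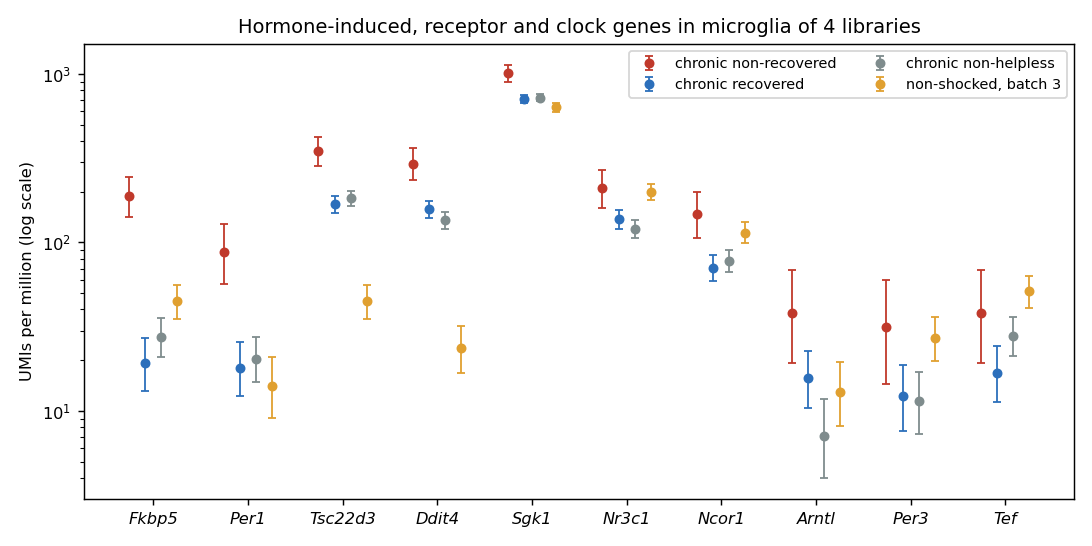
Levels of 10 hormone-induced, receptor and clock genes in microglia of 4 libraries, in CPM on a log axis, with exact 95% Poisson intervals that cover counting error only. Fkbp5 and Per1 are highest in non-recovered microglia, at 188 and 87.2 CPM, and Tsc22d3 and Ddit4 are lowest in non-shocked microglia, at 44.7 and 23.5.

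Immediate early genes, which answer stimulation within minutes and also tissue dissociation, had a share of higher genes near that of all genes. Of 24 listed 16 were measured, 4 were higher (25.0%, against 26.4%) and 0 lower, with a median of -0.08 and a mean of 0.32. The counts were the same in ribosome-rich cells, with a median of -0.11. Egr1 stood at 373 against 110 CPM, 3.38-fold higher (2.64 to 4.30), but at 529 in non-shocked microglia. Atf3, a stress factor, stood at 90.6 against 36.6, 2.48-fold higher (1.5 to 3.97), with 91.6 CPM in non-helpless microglia. Klf2, a factor that restrains inflammatory genes, had 19 UMIs against 55 and was 2.07-fold higher (1.16 to 3.55). The large ratio of Egr2, 4.91-fold, was that of 1 cell, which held 16 of its 18 non-recovered UMIs; without that cell the log2 ratio was -0.25. Junb at 868 against 1205 CPM and Fos at 307 against 400 lay on the lower side without reaching 1.5-fold.

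Chemokine ratios also rested on single cells. Of 23 chemokines and cytokines listed 11 were measured, 2 were higher (18.2%, against 26.4% of all genes) and 4 lower (36.4%, against 11.4%), with a median of -0.38, and in ribosome-rich cells the counts were the same and the median -0.20. Ccl4 had 76 UMIs in non-recovered cells, 47 of them in 1 cell, and 203 in recovered cells, 68 of them in 1 cell; its log2 ratio was 1.17, and -0.19 without the first of these cells. Ccl3, a like chemokine, had 24 of 37 and 29 of 73 UMIs in 1 cell each, and its ratio of 1.60 became 0.13. Ccl2, which draws monocytes, had 61 of 80 recovered UMIs in 1 cell, and its ratio of -1.15 became 0.92. Ccl12 was less uneven, with 11 UMIs against 164, at 38.4 against 95.3 CPM, 2.49-fold higher (1.35 to 5.08) in recovered microglia, and its ratio without the top cell was -1.08. Csf1, the microglial growth factor, had 5 UMIs against 61, with an interval that included 1.

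Among 16 measured genes of the NF-kB pathway, 4 were higher (25.0%) and 2 lower (12.5%), with a median of 0.15, near the 26.4%, 11.4% and 0.17 of all genes. In ribosome-rich cells 2 of 17 were higher and 3 lower, with a median of 0.087. Rela, its main activating subunit, stood at 167 against 97.6 CPM, 1.71-fold higher (1.22 to 2.38). Sod2, the mitochondrial superoxide dismutase, had 3 UMIs against 70 and was 3.89-fold higher (1.28 to 19.3) in recovered microglia. Nfkbiz, a nuclear cofactor of the pathway, had 6 against 84, 2.33-fold (1.03 to 6.54). Both stood at 37.1 to 59.4 CPM in non-helpless and non-shocked microglia, close to the recovered levels of 40.7 and 48.8.

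C/EBP and microglial identity factors had a median of 0.41, with 8 of 19 measured genes higher (42.1%, against 26.4% of all genes) and 0 lower. Cebpb, a factor of myeloid and acute phase genes, stood at 307, 101, 24.7 and 177 CPM in non-recovered, recovered, non-helpless and non-shocked microglia, 3.05-fold higher (2.33 to 3.97) than in recovered ones. Its partner Cebpg stood at 202, 54.6, 46.0 and 142 CPM, 3.70-fold higher (2.62 to 5.19). Cebpa, another member of the family, stood at 422 against 239, 1.77-fold higher (1.43 to 2.17). Mef2a, a factor of microglial identity, stood at 861 against 404, 2.13-fold higher (1.84 to 2.47), with 725 in non-shocked microglia. The pioneer factor Spi1 (PU.1) stood at 478 against 658 CPM and Irf8 at 561 against 563. In ribosome-rich cells 5 of the 19 were higher (26.3%, against 21.2% of all genes), among them Cebpb at 1.84, Cebpg at 2.02, Cebpa at 1.01 and Mef2a at 0.73, whereas Smad3 went from 1.16 to 0.34 and Runx1 from 0.92 to 0.17.

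Growth factors and their regulators had 4 of 13 measured genes higher (30.8%) and 1 lower (7.69%), against 26.4% and 11.4% of all genes, with a median of 0.29. In ribosome-rich cells 2 were higher and 0 lower. Itgb5 is also on the list of adhesion genes below. Smad7, an inhibitor of TGF-beta signalling, had 68 UMIs against 77, at 237, 44.7, 47.0 and 190 CPM in the order above, 5.30-fold higher (3.77 to 7.44). Itgb5 and Itgav, integrin chains that can release active TGF-beta, stood at 1077 against 373 and at 241 against 102 CPM, 2.89-fold (2.51 to 3.31) and 2.35-fold (1.75 to 3.12) higher. Nrros, which anchors latent TGF-beta on microglia, stood at 415 against 263, 1.58-fold higher (1.28 to 1.94). The ligand Tgfb1 stood at 715 against 637, with an interval that included 1. The ratios within ribosome-rich cells were 1.72 for Smad7, 1.41 for Itgb5, 0.54 for Itgav and 0.55 for Nrros. For Smad7, Itgb5 and Itgav the non-shocked level was nearer the non-recovered than the recovered one.

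Of 31 lysosomal genes 3 were higher (9.68%, against 26.4% of all genes) and 1 lower (3.23%, against 11.4%), and the median was -0.18, below the 0.17 of all genes. Lamp1, a major protein of the lysosomal membrane, had 272 UMIs against 340, at 948, 198, 206 and 1228 CPM, 4.80-fold higher (4.08 to 5.65). Tfeb, the factor that governs lysosomal genes, stood at 90.6, 33.1, 34.7 and 50.6 CPM, 2.74-fold higher (1.65 to 4.42). The member that was lower was Ctsl, a cathepsin, at 920 against 1445 CPM, 1.57-fold higher (1.38 to 1.79) in recovered microglia. Ctsd, another cathepsin, stood at 8197 against 9307 CPM, less than 1.5-fold apart. In ribosome-rich cells Lamp1 lay at 2.47 and Tfeb at 1.48 on the log2 scale, with 3 of 31 genes higher and 0 lower.

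Lipid handling had a median of 0.37, with 5 of 15 measured genes higher (33.3%, against 26.4% of all genes) and 1 lower. In ribosome-rich cells 4 of 14 were higher (28.6%, against 21.2%) and 0 lower. Apoe, the lipid carrier, stood at 307 against 164 CPM, 1.87-fold higher (1.46 to 2.39), but non-helpless and non-shocked microglia held more, 380 and 525. Of the cholesterol exporters, Abcg1 stood at 105 against 51.1, 2.05-fold higher (1.30 to 3.13), and Abca1 at 418 against 230, 1.82-fold higher (1.47 to 2.24). In ribosome-rich cells Apoe kept 0.88 and Abcg1 0.85, while Abca1 was under 1.5-fold, at 0.19.

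Antigen presentation genes lay on the lower side in all cells and in ribosome-rich cells. Of 20 measured MHC class I genes 7 were lower (35%, against 11.4% of all genes) and 0 higher, with a median of -0.33. In ribosome-rich cells 4 of 20 were lower (20%, against 10.5%), with a median of -0.30. In ribosome-poor cells 12 of 20 were lower (60%, against 23.4% of all genes there) and 2 higher. Psme2, a proteasome activator subunit, stood at 73.2 against 171 CPM, 2.33-fold higher (1.5 to 3.83) in recovered microglia. H2-D1, a classical class I chain, stood at 300, 657, 467 and 529 CPM, 2.19-fold higher (1.76 to 2.76). Reads of class I genes can be split between near-identical copies, so single values of this family are uncertain. Of 8 measured class II genes 4 were lower (50%, against 11.4%) and 1 higher (12.5%, against 26.4%), with a median of -0.59. Beside Cd74 these were H2-Oa, H2-Ob and H2-DMb1, which take part in peptide loading. H2-DMb1 stood at 112 against 187 CPM, 1.68-fold higher (1.16 to 2.49) in recovered microglia, and H2-Oa at 27.9 against 59.3, 2.13-fold (1.04 to 5.06). Rfxank, a factor of class II transcription, was the higher gene, at 27.9 against 13.4 CPM with an interval that included 1. In ribosome-rich cells 2 of 6 measured class II genes were lower (33.3%, against 10.5%) and 0 higher. In ribosome-poor cells 1 of 5 was lower (20%, against 23.4%) and 0 higher. Markers of other antigen-presenting cells stood at 188 against 324 CPM for 6 B cell markers, of which 4 and 0 were at 0, and at 13.9 against 29.6 CPM for 7 dendritic cell markers, of which 4 and 2 were at 0. The 9 macrophage markers of brain borders stood at 10.5 against 5.81 CPM, with 7 at 0 in each library. Their part in the class II values was not tested.

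Few complement and homeostatic genes were 1.5-fold apart in all cells and in ribosome-rich cells. Of 13 measured complement and Fc receptor genes 2 were lower (15.4%, against 11.4% of all genes) and 1 higher, with a median of -0.45, which became -0.21 with 0 lower and 0 higher in ribosome-rich cells. C1qb stood at 6157 against 9313 and Fcer1g, the shared Fc receptor chain, at 1422 against 2305 CPM, 1.51-fold (1.44 to 1.59) and 1.62-fold (1.46 to 1.80) higher in recovered microglia. Of 29 homeostatic genes 3 were lower (10.3%) and 1 higher, with a median of -0.16, and in ribosome-rich cells 1 was lower and 1 higher, with a median of -0.12. Crybb1, a crystallin of mature microglia, stood at 213 against 417 CPM, 1.96-fold higher (1.51 to 2.59) in recovered microglia, and at 379 and 349 in the other libraries. The receptors P2ry12, Cx3cr1 and Csf1r stood at 5913 against 7423, 5387 against 5228 and 7963 against 7346 CPM, each less than 1.5-fold apart. Of 20 disease-associated microglia genes 7 were lower (35%, against 11.4% of all genes) and 2 higher (10%, against 26.4%) in all cells. In ribosome-rich cells 1 was lower (5%, against 10.5%) and 2 higher (10%, against 21.2%). In ribosome-poor cells 8 of 13 complement and Fc receptor genes were lower (61.5%, against 23.4% of all genes there) and 0 higher. There 10 of 29 homeostatic genes (34.5%) and 8 of 17 disease-associated genes (47.1%) were lower, and 1 and 3 higher.

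Nuclear genes of oxidative phosphorylation formed the list with the lowest median, at -0.65, with 27 of 49 lower (55.1%, against 11.4% of all genes) and 0 higher. Ndufv3 of complex I stood at 52.3 against 119 CPM, 2.28-fold higher (1.35 to 4.14) in recovered microglia. Atp5e of ATP synthase stood at 126 against 268, 2.14-fold (1.52 to 3.09), and Cox4i1 of complex IV at 185 against 371, 2.01-fold (1.51 to 2.71). In ribosome-rich cells 10 of 49 were lower (20.4%, against 10.5%) and the median was -0.29. The ratio was below 0 for 47 of the 49 in all cells and 41 in ribosome-rich cells. The 13 mitochondrially encoded genes had a median of 0.11 in all cells, with 3 of 13 below 0, and of -0.23 in ribosome-rich cells, with 11 of 13 below 0. In all cells their 1 gene apart was mt-Atp8, whose reads can be split with the overlapping mt-Atp6, at 404, 116, 258 and 228 CPM, 3.50-fold higher (2.76 to 4.42) in non-recovered microglia. In glycolysis 1 of 19 genes was higher (5.26%, against 26.4% of all genes) and 3 lower (15.8%, against 11.4%), and in ribosome-rich cells 2 were higher and 0 lower. Ldha, lactate dehydrogenase, stood at 115 against 205 CPM, 1.78-fold higher (1.24 to 2.62) in recovered microglia. Pdk1, which shuts pyruvate out of mitochondria, stood at 167 against 61.6, 2.72-fold higher (1.89 to 3.86) in non-recovered microglia.

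Heat shock chaperones had 4 of 19 lower (21.1%, against 11.4% of all genes) and 0 higher, with a median of -0.26. In ribosome-rich cells 5 were lower (26.3%, against 10.5%) and 0 higher. Hspe1, a mitochondrial chaperonin, stood at 112 against 199 CPM, 1.79-fold higher (1.24 to 2.65) in recovered microglia, and Hspa1b at 17.4 against 42.4, with an interval that included 1 and 0.589 CPM in non-shocked microglia. Among 11 measured neurotransmitter receptors 2 were higher (18.2%, against 26.4% of all genes), and 1 in ribosome-rich cells (9.09%, against 21.2%). Adrb1, the beta-1 adrenergic receptor through which noradrenaline acts, had 25 UMIs against 57, at 87.2, 33.1, 20.9 and 33.6 CPM, 2.63-fold higher (1.58 to 4.28). It was highest in the non-recovered library, the other 3 lay between 20.9 and 33.6 CPM, and its ratio in ribosome-rich cells was 1.19. Cell adhesion genes had 3 of 24 higher and 3 lower (12.5% each, against 26.4% and 11.4% of all genes), and in ribosome-rich cells 3 higher and 0 lower. Interferon-stimulated genes had 0 of 8 higher and 1 lower (12.5%), and in ribosome-rich cells 0 of 7 in either direction. In ribosome-poor cells 7 of 8 were lower (87.5%, against 23.4% of all genes there) and 0 higher. The list held 109 non-recovered and 143 recovered UMIs there.

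**Figure D5:**
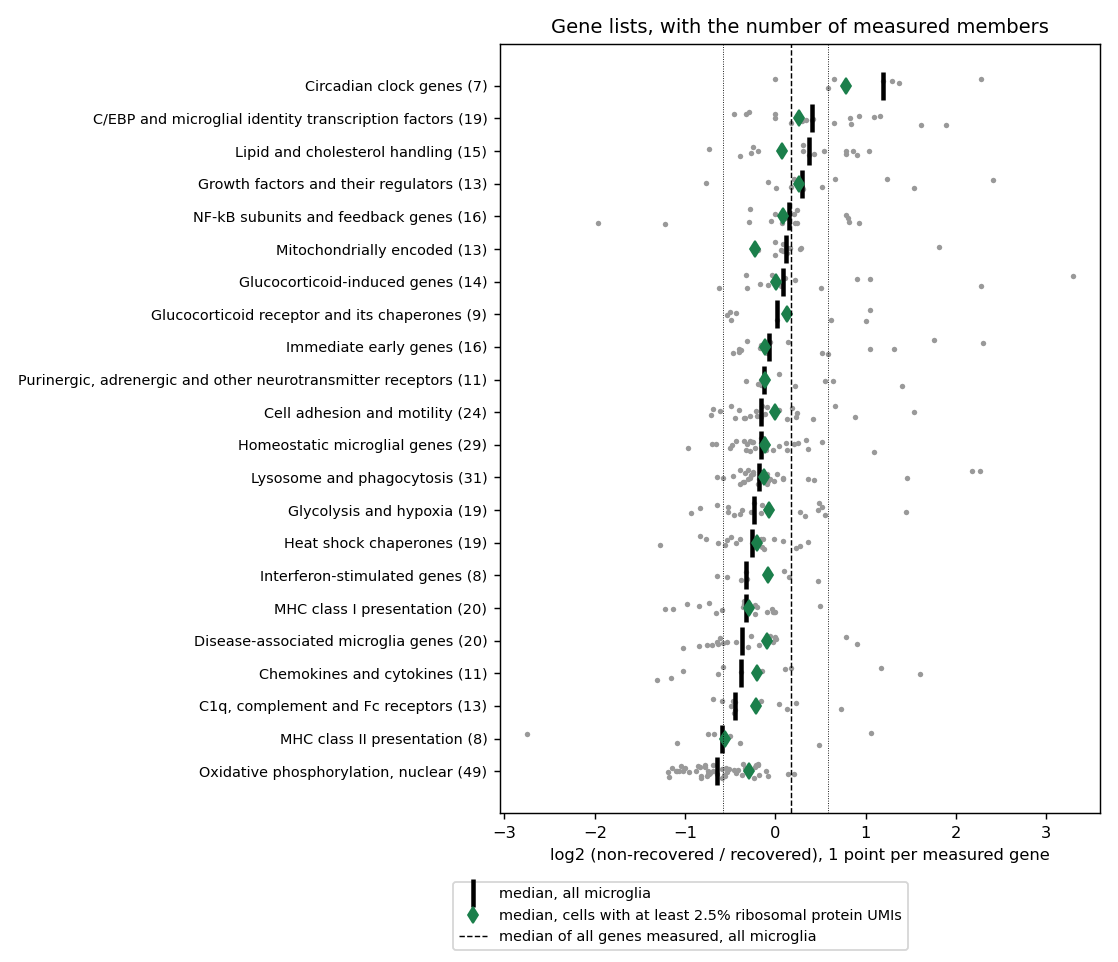
Log2 ratios of non-recovered over recovered microglia for the measured members of 22 gene lists, 1 grey point per gene, with the list's median in all microglia (bar) and in cells with at least 2.5% ribosomal protein UMIs (diamond). The dashed line is the median of all 7007 genes, 0.17, and dotted lines mark 1.5-fold; clock genes lie highest at 1.19 and oxidative phosphorylation lowest at -0.65.

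A further 3 genes were chosen after their values were seen. Both chronic libraries of mice that had been helpless held them, while non-helpless and non-shocked microglia had lower levels or none. The acute helpless library was not looked at. Dlgap1, a postsynaptic scaffold gene on chr17:69969073-70821413, had 41 UMIs in each library, at 143 against 23.8 CPM, 6.00-fold higher (3.8 to 9.48) in non-recovered microglia. No UMI was found in non-helpless or non-shocked microglia, which allows up to 1.42 and 1.77 CPM at 3 counts. Qpct, a glutaminyl cyclase on chr17:79051906-79090378, stood at 202 against 56.4 CPM, 3.59-fold higher (2.55 to 5.02), with 2.85 and 1.77 CPM in the other libraries. Bcl2a1d, a BCL2 family gene with near-identical copies, stood at 76.7 against 26.7, 2.87-fold higher (1.64 to 4.87), with 4.75 and 10.6 CPM. In ribosome-rich cells the ratios were 4.47-fold (2.47 to 7.88) for Dlgap1, 4.53-fold (3.13 to 6.47) for Qpct and 3.88-fold (2.2 to 6.63) for Bcl2a1d. Neuronal markers summed to 0 against 0.581 CPM, and whether the Dlgap1 UMIs came from neuronal RNA was not tested. Dst, a large cytoskeletal linker also chosen after its values were seen, had its highest level in the non-recovered library, at 547, 127, 144 and 227 CPM, 4.32-fold higher (3.50 to 5.33), and 2.51-fold (1.84 to 3.39) in ribosome-rich cells.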

How the data were processed

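Raw UMI counts per gene and cell were taken from the deposited matrices of the non-recovered, recovered, non-helpless and non-shocked libraries, and cell types, clusters, batches and the deposited counts of UMIs and genes per cell from the authors' metadata, per the file headers. Cell Ranger 2.2.0, Seurat 2.3.4 and build mm10 are named in the submitters' processing notes; how cells were filtered, typed and checked for doublets the sources used here do not say, and no doublet caller was run.

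UMIs were summed per library over microglia and scaled to 1000000 (CPM). Ratios have conditional exact 95% intervals, shares exact Clopper-Pearson intervals and levels exact Poisson intervals. In log2 ratios, counts of 0, 1 or 2 in the lower library were set to 3, and no ratio was formed where neither library had over 3 UMIs. Non-shocked over non-helpless ratios had 2 CPM added. Summed UMIs ran from 286827 to 2106437 per library. At 286827 UMIs, 20 CPM is about 6 UMIs, so low genes have wide intervals. The code for ratios and their intervals was checked on simulated counts with known ratios. Python 3.11.15, numpy 2.4.6, pandas 2.3.3 and scipy 1.17.1 were used.

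Named genes were the 12 highest and 12 lowest ratios at a mean of at least 50 CPM and at least 30 UMIs, without mitochondrial, ribosomal protein, haemoglobin, immunoglobulin, T cell receptor, Y-linked and unnamed genes and Xist, and members of 22 gene lists. Genes, lists and the 2.5% ribosomal threshold were chosen with earlier results of these data known. Alternatives were other scalings, depths, cell filters, expression minima, a 2-fold threshold, cluster 6 alone, and each gene without its top cell in the library where it was higher. Added after seeing the data were ribosome-poor cells alone, ribosome-rich cells with median-of-ratios scaling, and the recovered library without cluster 6 barcodes of at least 2.5% ribosomal UMIs. Acute libraries were not used here.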

Additional observations from a re-analysis of the deposited data

Results flagged for a closer look

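The barcodes left out of the microglia held signal of other cells. The barcode left out of the non-recovered library had 6136 of its 17107 UMIs in the 5 neutrophil genes S100a8, S100a9, Ngp, Camp and Retnlg. The barcode left out of the recovered library had 2122 of its 6026 UMIs from Ttr. Both had been typed as microglia by the authors. With these barcodes kept, 1744 genes were higher and 799 lower in non-recovered microglia.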

How the results depend on the processing

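No paired analysis was possible because each group had 1 library. The count of genes at least 1.5-fold lower, 797, became 1230 with median-of-ratios size factors, 1201 with each cell weighted equally, 1501 in deposited cluster 6 alone, which holds 57 non-recovered and 46 recovered cells, and 1356 in cells with under 2.5% ribosomal protein UMIs. The count of higher genes, 1853, became 1231 in ribosome-rich cells with median-of-ratios scaling and 2823 at a mean of at least 5 CPM. A mean of at least 50 CPM gave 853 higher and 406 lower genes, one of at least 100 gave 304 and 240, and a 2-fold threshold gave 880 and 228. The higher genes outnumbered the lower under each of these settings.

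Only the list medians of clock genes (1.19), MHC class II (-0.59) and oxidative phosphorylation (-0.65) were at least 1.5-fold from 0. None of these changed sign. Medians nearer to 0 could not be recorded as changed, and some did change sign. With median-of-ratios size factors the medians of glucocorticoid-induced, receptor, NF-kB and mitochondrially encoded genes went from above 0 to below it. In ribosome-rich cells the median of mitochondrially encoded genes went from 0.11 to -0.23. A single gene's ratio of at least 1.5-fold changed sign in the cases below, and 88 of the 99 genes tried had no such change. The 99 include genes under 1.5-fold in all microglia, such as Cx3cr1 and Csf1r, which this count could not record as changed. With median-of-ratios size factors Csf1r went from 0.12 to -0.053 and Cx3cr1 from 0.043 to -0.13 on the log2 scale. Without the top cell of the library where the gene was higher, the log2 ratio was -0.25 for Egr2, -0.19 for Ccl4 and 0.92 for Ccl2. In cluster 6 alone it was -0.66 for Arntl, -0.050 for Bhlhe41, -1.06 for Klf2 and -0.081 for Apoe. In ribosome-poor cells it was 0.040 for Rbm8a and Atp5e, -0.37 for Bhlhe41, 0.43 for Crybb1 and 0.36 for Hspe1. In cluster 6 alone 41 genes stayed within their interval of all microglia, 44 moved outside it and 4 were those named. In ribosome-poor cells 34 stayed within it, 42 moved outside it and 5 were those named. Not all of the 99 genes could be compared in either set. The cause of these changes was not tested. The ribosome-poor cells hold 92713 and 71505 UMIs, so 3 UMIs are 32.4 and 42.0 CPM there, and genes of lower level could not be compared in them.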
